A study of Rattus norvegicus with 16 samples.

Results

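The genes described here encode neuropeptides of the hippocampus and markers of its interneurons. They are 10 genes: the peptide precursors Npy, Sst, Vip, Cck, Tac1, Penk and Pdyn, the calcium-binding protein gene Pvalb, and Gad1 and Gad2, which encode the enzymes that make GABA. A gene was read from the probe whose RefSeq accession belongs to its symbol, and where it had several, from the probe of highest mean signal. This gave a value for 8 of the 10 genes, out of 26565 features tested in all. Vip and Pvalb had no probe matched in this way and were not analysed here.

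RNA came from the right hippocampus of 16 male Wistar rats, 4 in each of 4 groups, and each rat had its own 1-colour Agilent array. All rats were fitted at 5 weeks of age with a cannula aimed at the right amygdala, through which 1.0 µl of a solution at pH 2.2 was later infused. In the Fe day 5, Fe day 15 and Fe day 30 groups the infusion was 100 mM FeCl3 in saline, and the rats were killed 5, 15 and 30 days after it. In the control group it was saline alone, and these rats were killed on day 15. Amygdalar iron is a model of post-traumatic epilepsy, and the seizures it provokes come back over weeks. Per the series text, seizures recurred in the Fe rats but their rate was not measured, and none were seen in the controls. Because every control was taken on day 15, the comparisons of days 5 and 30 also carry a difference in age and in days since infusion.

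Interneurons are the GABA-releasing minority among hippocampal neurons. Gad1 and Gad2 are common to nearly all of them, whereas somatostatin, neuropeptide Y and cholecystokinin mark subsets with different targets. Tac1 (substance P and neurokinin A), Penk (enkephalins) and Pdyn (dynorphins) encode peptides that act on excitability, and dynorphin is made by the granule cells of the dentate gyrus and released from their mossy fibres. Seizures are well known to alter the levels of several of these peptides in rodent hippocampus. Several of the genes are also transcribed in response to cAMP and calcium signalling through the factor CREB, which binds the cAMP response element.

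The promoters of the genes on which the comparisons below mostly turn are shown first, since the cAMP response element was described in one of them, Sst. They are RefSeq sequences on the rat assembly GRCr8, 300 bases long, from 250 bases before to 50 bases after the annotated start, written 5′ to 3′ on the gene's strand. Capitals mark the full element TGACGTCA or its half-site TGACG, each read on either strand. The Sst window is chr11:90461296-90461595 on the plus strand, the Tac1 window chr4:36645333-36645632 on the plus strand and the Pdyn window chr3:137366454-137366753 on the minus strand.
Sst: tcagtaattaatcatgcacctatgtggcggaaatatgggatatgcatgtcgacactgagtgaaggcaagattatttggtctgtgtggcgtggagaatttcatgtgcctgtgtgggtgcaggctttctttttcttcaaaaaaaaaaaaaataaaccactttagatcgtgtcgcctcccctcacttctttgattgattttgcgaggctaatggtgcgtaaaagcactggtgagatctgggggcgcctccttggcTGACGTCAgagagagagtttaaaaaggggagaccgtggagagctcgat
Tac1: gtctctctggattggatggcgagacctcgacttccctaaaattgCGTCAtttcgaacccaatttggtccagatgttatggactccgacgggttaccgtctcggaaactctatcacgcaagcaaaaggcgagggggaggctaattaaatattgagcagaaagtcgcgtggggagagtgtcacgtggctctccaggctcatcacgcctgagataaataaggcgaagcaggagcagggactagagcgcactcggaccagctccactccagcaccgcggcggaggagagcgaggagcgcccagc
Pdyn: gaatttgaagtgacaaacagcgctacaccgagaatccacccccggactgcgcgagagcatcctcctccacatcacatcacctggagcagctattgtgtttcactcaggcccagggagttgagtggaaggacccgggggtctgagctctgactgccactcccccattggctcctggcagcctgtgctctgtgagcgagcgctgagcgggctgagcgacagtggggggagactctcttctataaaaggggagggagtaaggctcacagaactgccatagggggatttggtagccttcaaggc
The Sst window held 1 full element, which began at base 253 of the window and so lay after the annotated start. The Tac1 window held 1 half-site, beginning at base 45, and the Pdyn window held neither. The promoter table had entries for 8 of the 10 genes, not for Cck and Penk. Vip and Pvalb each held a half-site, at bases 154 and 10, and Npy, Gad1 and Gad2 held neither motif. Over all 33469 promoters of the same length, searched on both strands, 1.83% held the full element and 21.2% held the 5-base half-site, a count that includes promoters with the full element. A match is a run of letters, and no match says only that these letters are not in this window.

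On every array between 74.2% and 81.6% of the transcript spots were well above background, and the 8 measured genes were above it on all 16 arrays. Signals are given relative to the array, as the processed signal divided by the 75th percentile of that array, and differences as log2 of the ratio of group means on the log scale. Npy, Sst, Cck and Tac1 were printed in 10 spots each, and the median SD over the spots of an array was 0.03 to 0.04 on the log2 scale, against 0.09 to 1.03 for the SD over the animals of a group, so for these genes the spread below is that between arrays of different rats. Marker lists were read to describe the tissue on the arrays. Of 12 dentate granule markers 7 were measured, and 6 of those were above background on all 16 arrays, as were 9 of 12 pyramidal markers of CA1 and CA3. So were 8 of 12 striatum markers and 15 of 17 meninges markers, so detection alone does not check the dissection. A list's score on an array was taken as the median of its genes' log2 signals after each gene's mean in the controls was subtracted. Fe day 5 replicates 2 and 3 and Fe day 30 replicate 3 had the highest scores of choroid plexus markers, 1.46, 2.64 and 6.22, against at most 0.21 in a control. They also had the highest scores of meninges markers, 3.73, 2.05 and 3.15, against at most 0.09 in a control. By summed relative signal of the choroid plexus list, Fe day 5 replicate 2 had 8.65, against 6.52 to 8.52 in the controls. By this sum Fe day 5 replicates 1 and 4 were higher, at 10.6 and 11.5. Fe day 15 replicates 1, 3 and 4 had 9.58, 10.8 and 9.49, and Fe day 30 replicate 4 had 11.9. Fe day 15 replicate 2 and Fe day 30 replicates 1 and 2 had 7.63, 6.20 and 7.21. By score some other Fe arrays exceeded the controls by less. Fe day 5 replicates 1 and 4 scored 0.54 and 0.32 in choroid plexus markers. Fe day 15 replicate 4, which was kept, scored 0.97 in choroid plexus and 0.73 in meninges markers. Fe day 15 replicate 3 and Fe day 30 replicate 4 scored 0.61 and 0.67 in choroid plexus markers. The results at days 5 and 30 are therefore given with and without Fe day 5 replicates 2 and 3 and Fe day 30 replicate 3. Without these 3 arrays Fe day 5 rests on replicates 1 and 4 alone, and Fe day 30 on replicates 1, 2 and 4. The SEs of those estimates use the spread pooled over all groups, so a smaller SE there does not make the day 5 values firmer.

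Among the 8 genes Tac1 had the largest estimate in the day 15 comparison, 2.79-fold above control, and Sst was also above every control in all 4 Fe day 15 rats, at 1.36-fold. Penk, Cck, Gad1 and Gad2 had estimates above 0 at day 15, and Npy and Pdyn had estimates below 0. None of these differences passed the test. With limma fitted to all features and Benjamini-Hochberg adjustment, 0 of the 8 genes had an adjusted p under 0.05 at day 5, day 15 or day 30 against control. The same rule called 0% of all 26565 features at day 5, 0% at day 15 and 0.00753% (2 features) at day 30. At an unadjusted p under 0.05 the members were 1 of 8 at day 5 (Sst), 2 of 8 at day 15 (Tac1 and Gad1) and 0 of 8 at day 30, against 10.3%, 11.5% and 7.77% of all features. Of the 8, 2 did not overlap with the controls at day 15, both of them higher, against 4.11% of all features. The median log2 difference of the 8 genes was 0.22, 0.30 and 0.18 at days 5, 15 and 30, and that of all features was −0.02, 0.00 and −0.01. In tissue RNA, fewer cells of a type and less RNA per cell cannot be told apart. The limma p-values rest on the spread between rats within groups, pooled over the 4 groups and drawn toward the spread of all features. The permutation p-values come from permuting the arrays.

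**Figure D1:**
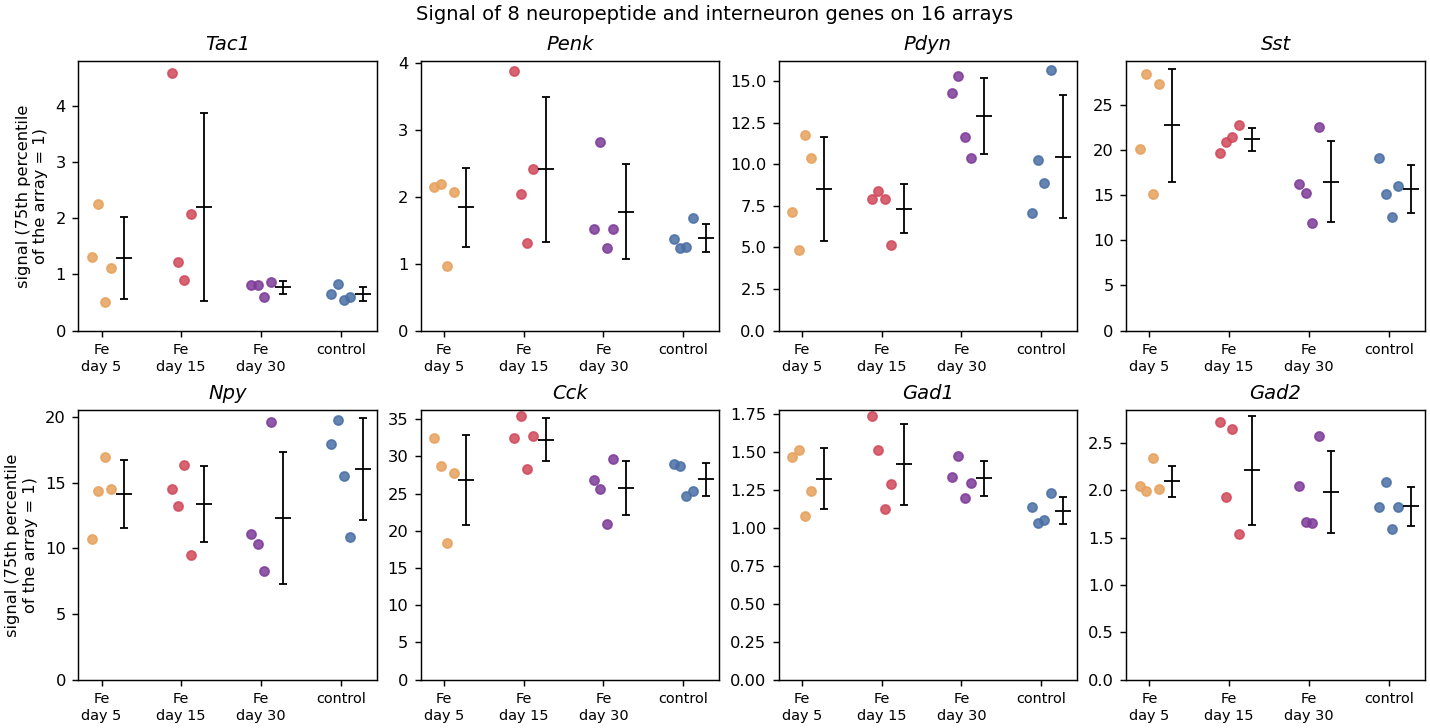
Signal of 8 genes on the 16 arrays, as processed signal divided by the 75th percentile of the array (vertical axis, linear, from 0), by group. Points are rats and the bars beside them are mean and SD (n = 4). Tac1 in Fe day 15 ran from 0.903 to 4.59, above all 4 controls, which ran from 0.542 to 0.829.

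Tac1, the precursor of substance P and neurokinin A, varied most among rats. Its relative signal was 1.31, 2.25, 0.503 and 1.11 in Fe day 5 replicates 1 to 4. In Fe day 15 it was 4.59, 1.21, 0.903 and 2.07. In Fe day 30 it was 0.821, 0.819, 0.602 and 0.859, against 0.644, 0.829, 0.542 and 0.591 in the controls. All 4 Fe day 15 rats were above the highest control, 3 of 4 Fe day 5 rats were above it and 1 was below the lowest, and the Fe day 30 rats lay at or near the controls. The SD on the log2 scale was 0.90 in Fe day 5 and 1.03 in Fe day 15, against 0.24 in Fe day 30 and 0.27 in the controls. The residual SD of Tac1 in the fit, 0.70, was at percentile 95.8 of all features.

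The log2 difference of Tac1 from control was 1.48 ± 0.46 (SE) at day 15, with a 95% interval of 0.49 to 2.47 and a limma p of 0.00617, adjusted to 0.293. An exact permutation test of the group means gave 0.0286, the smallest p that 4 arrays against 4 can give. Fe day 15 replicate 1 carried part of the size, since without it the difference was 1.03 ± 0.40. The difference was 1.81 ± 0.46 without Fe day 15 replicate 3, whose signal was the lowest of the group. On the 3 slides that held both a Fe day 15 array and a control array the differences were 2.47, 1.16 and 0.61, and with slide as a block the estimate was 1.42 ± 0.48. At day 5 the difference was 0.82 ± 0.46 (adjusted p in limma 0.517), and 0.91 ± 0.48 without the arrays high in choroid plexus and meninges markers. Fe day 5 replicate 3, the one low array of that group, was among these, and leaving out that array alone gave 1.21 ± 0.43, whereas leaving out replicate 2, the highest, gave 0.49 ± 0.46. At day 30 the difference was 0.26 ± 0.46 (adjusted p in limma 0.890), or 0.37 ± 0.43 without those 3 arrays.

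Tac1 and Penk are also strongly expressed by the projection neurons of the striatum, so striatal markers are given beside them. Of 12 such markers 9 were measured. Their score was 0.10, −0.18, −0.04 and 0.89 in Fe day 15 replicates 1 to 4, 0.02, −0.02, −0.28 and 0.44 in Fe day 5, and −0.05 to 0.08 in the controls. The summed relative signal of the list was 8.65, 8.39, 4.16 and 5.22 in Fe day 5 and 4.43, 6.93, 5.47 and 7.84 in Fe day 15. In Fe day 30 it ran from 4.63 to 6.25, against 4.76 to 5.01 in the controls. The highest sums were thus those of Fe day 5 replicates 1 and 2, the rats with the highest Tac1 signals of that group, while Fe day 15 replicate 1, with the highest Tac1 of all, had a sum below the controls. Ido1 was not well above background on any array, and Six3 was above it on 1 array of each Fe group and on 0 controls. The rat with the highest Tac1 signal, Fe day 15 replicate 1, had a striatal score of 0.10. Without replicate 4, the rat with the highest striatal score, Tac1 at day 15 differed from control by 1.41 ± 0.51 on the log2 scale. Whether striatal tissue contributed to the Tac1 and Penk signals was not tested.

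Scores of the principal cells were below the controls in most Fe arrays at every day. The CA1 and CA3 markers scored −0.39, −0.69, −0.20 and −0.53 in Fe day 5 replicates 1 to 4. They scored −0.58, −0.21, −0.10 and −0.89 in Fe day 15. They scored −0.30, −0.43, −0.60 and −0.08 in Fe day 30, against −0.14 to 0.08 in the controls. Dentate granule markers scored −0.40, −0.52, 0.07 and −0.26 in Fe day 5, and −0.45, −0.27, −0.10 and −0.95 in Fe day 15. In Fe day 30 they scored −0.17, −0.29, −0.48 and −0.18, against −0.05 to 0.09 in the controls. Excitatory neuron genes scored −0.95 to −0.12 in Fe day 5, −0.56 to 0.09 in Fe day 15 and −0.55 to 0.05 in Fe day 30, against −0.05 to 0.11 in the controls. Pan-neuronal genes scored −0.06 to 0.19 in Fe day 5, −0.09 to 0.15 in Fe day 15 and −0.25 to 0.07 in Fe day 30. In the controls they scored −0.03 to 0.07. The arrays did not all pair low principal-cell scores with high Tac1 and Penk. Fe day 15 replicates 1 and 4 and Fe day 5 replicate 2 had low scores and the highest Tac1 and Penk signals of their groups. Fe day 30 replicate 3 had the lowest scores of its group and also its lowest Tac1 and Penk signals. That array also had the lowest pan-neuronal score of the 16, −0.25, and scored 6.22 in choroid plexus and 3.15 in meninges markers. The part of cell makeup or dissection in the results of these genes was not tested.

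Penk, the precursor of the enkephalins, had relative signals of 2.14, 2.20, 0.968 and 2.07 in Fe day 5. They were 3.89, 2.04, 1.31 and 2.42 in Fe day 15. They were 1.52, 2.83, 1.24 and 1.52 in Fe day 30, against 1.38, 1.24, 1.25 and 1.68 in the controls. In Fe day 5 and Fe day 15, 3 of 4 rats were above the highest control, and all 3 Fe groups overlapped with the controls. The log2 difference from control was 0.70 ± 0.34 at day 15 (interval −0.02 to 1.42, adjusted p in limma 0.443). On the 3 shared slides it was 1.65, 0.70 and −0.36, and without Fe day 15 replicate 1 it was 0.44 ± 0.32. At day 5 it was 0.35 ± 0.34, and 0.61 ± 0.36 without the arrays high in choroid plexus and meninges markers. At day 30 it was 0.29 ± 0.34, and 0.44 ± 0.32 without them. Fe day 30 replicate 2 carried most of the day 30 value, which was 0.05 ± 0.33 when it was left out.

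Pdyn, the dynorphin precursor, had estimates below control at days 5 and 15 and above it at day 30. Relative signals were 7.14, 4.87, 11.8 and 10.4 in Fe day 5. They were 7.94, 8.37, 7.89 and 5.16 in Fe day 15. They were 14.3, 15.3, 11.6 and 10.4 in Fe day 30, against 7.07, 10.2, 8.86 and 15.7 in the controls. All 4 Fe day 15 rats were below the mean of the controls on the log2 scale and all 4 Fe day 30 rats above it, but each group overlapped with the wide range of the controls. The log2 difference from control was −0.31 ± 0.28 at day 5, −0.47 ± 0.28 at day 15 and 0.35 ± 0.28 at day 30, with adjusted p in limma of 0.692, 0.531 and 0.738. Control replicate 4 had the highest signal of all, and without it the differences were −0.10, −0.26 and 0.57, while without control replicate 1, the lowest of the controls, they were −0.48, −0.64 and 0.18. With the 3 arrays high in choroid plexus and meninges markers left out they were −0.22 ± 0.31 at day 5 and 0.39 ± 0.27 at day 30. Leaving out Fe day 5 replicate 2 alone gave −0.07 ± 0.26 at day 5. On the slides shared by Fe day 15 and control arrays they were −0.37, −0.08 and −0.99.

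**Figure D2:**
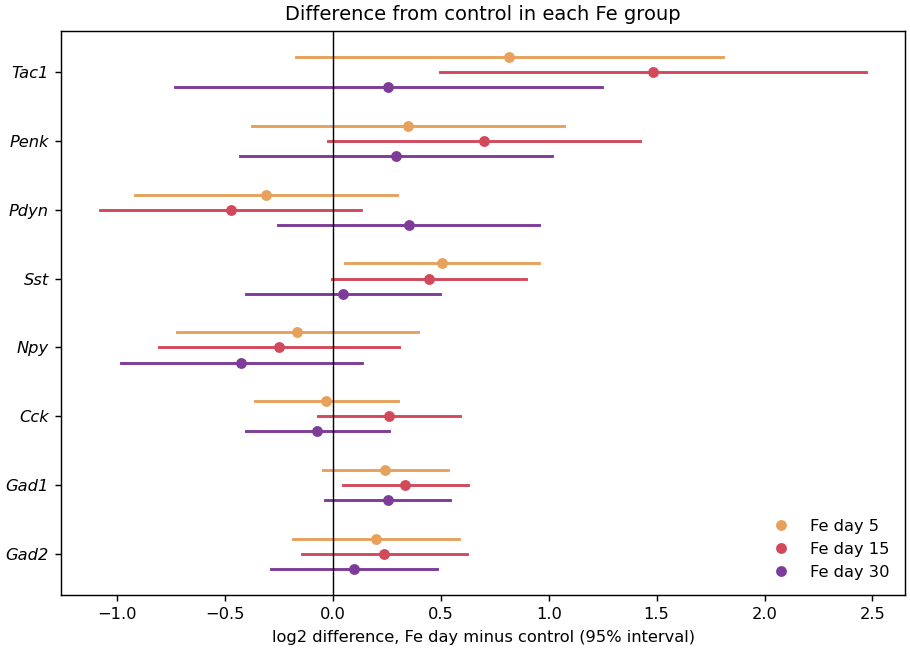
Log2 difference of each gene between each Fe group and control (points), with its 95% interval from the limma fit (lines). The intervals that lie wholly above 0 are those of Tac1 and Gad1 at day 15 and of Sst at day 5, and no difference had an adjusted p under 0.05.

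Sst, the somatostatin precursor and a marker of interneurons that contact distal dendrites, had relative signals of 20.1, 28.4, 15.1 and 27.3 in Fe day 5. They were 19.6, 20.9, 21.4 and 22.8 in Fe day 15. They were 16.2, 15.2, 11.9 and 22.6 in Fe day 30, against 19.1, 15.1, 12.6 and 15.99 in the controls. The Fe day 15 rats were close together, with an SD of 0.09 on the log2 scale against 0.25 in the controls, and the lowest of them lay just above the highest control. The log2 difference was 0.51 ± 0.21 at day 5 (interval 0.06 to 0.96, limma p 0.0298, adjusted 0.473) and 0.45 ± 0.21 at day 15 (limma p 0.0508, adjusted 0.434), and the exact permutation p at day 15 was 0.0286. At day 30 it was 0.05 ± 0.21. Without the arrays high in choroid plexus and meninges markers it was 0.60 ± 0.19 at day 5 and 0.19 ± 0.17 at day 30. On the shared slides it was 0.38, 0.74 and 0.42 at day 15 and 0.52 at day 5, and the block estimates were 0.54 ± 0.21 and 0.51 ± 0.24. Leaving out 1 array at a time gave 0.35 to 0.55 at day 15 and 0.39 to 0.69 at day 5.

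Npy, the neuropeptide Y precursor, had negative estimates at all 3 days. Relative signals were 10.7, 14.4, 17.0 and 14.5 in Fe day 5. They were 14.5, 13.2, 16.3 and 9.5 in Fe day 15. They were 11.1, 10.3, 8.24 and 19.6 in Fe day 30, against 17.9, 19.8, 15.5 and 10.8 in the controls. In each Fe group 3 of 4 rats were below the mean of the controls, and the groups overlapped. The log2 difference was −0.16 ± 0.26 at day 5, −0.25 ± 0.26 at day 15 and −0.42 ± 0.26 at day 30 (interval −0.98 to 0.13, adjusted p in limma 0.677). It was −0.33 ± 0.31 at day 5 and −0.26 ± 0.27 at day 30 without the arrays high in choroid plexus and meninges markers. Single rats moved it at every day. Leaving out 1 array at a time gave −0.34 (without control replicate 4) to −0.04 (without Fe day 5 replicate 1) at day 5, −0.43 (without control replicate 4) to −0.09 (without Fe day 15 replicate 4) at day 15, and −0.67 (without Fe day 30 replicate 4) to −0.26 (without Fe day 30 replicate 3) at day 30. With slide as a block the day 5 difference was 0.00 ± 0.34.

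Cck, the cholecystokinin precursor, is made by one class of basket cell and also, at lower levels, by many principal cells. Relative signals were 32.5, 28.7, 18.3 and 27.8 in Fe day 5. They were 32.5, 35.3, 28.3 and 32.7 in Fe day 15. They were 26.8, 25.6, 20.9 and 29.6 in Fe day 30, against 28.9, 28.7, 24.7 and 25.3 in the controls. At day 15, 3 of 4 rats were above the highest control and the log2 difference was 0.26 ± 0.15 (adjusted p in limma 0.529). At day 5 it was −0.03 ± 0.15 and at day 30 −0.07 ± 0.15. The lowest signals were those of Fe day 5 replicate 3 and Fe day 30 replicate 3, and without the arrays high in choroid plexus and meninges markers the differences were 0.16 ± 0.11 and 0.02 ± 0.10, on the other side of 0.

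Gad1 and Gad2 encode GAD67 and GAD65. Gad1 had relative signals of 1.46, 1.51, 1.08 and 1.24 in Fe day 5. They were 1.74, 1.51, 1.12 and 1.29 in Fe day 15. They were 1.33, 1.47, 1.20 and 1.29 in Fe day 30, against 1.13, 1.03, 1.05 and 1.23 in the controls. In every Fe group 3 of 4 rats were above the highest control, though Fe day 5 replicate 4 cleared it by little. The log2 difference was 0.24 ± 0.14 at day 5, 0.34 ± 0.14 at day 15 and 0.25 ± 0.14 at day 30. At day 15 the interval was 0.04 to 0.63 and the limma p 0.0266, adjusted to 0.387. Its other 2 probes gave 0.25 and 0.27 at day 5, 0.23 and 0.34 at day 15 and 0.22 and 0.21 at day 30. On the slides shared at day 15 the differences were 0.75, 0.53 and −0.12, and the block estimate was 0.32 ± 0.18. Leaving out the arrays high in choroid plexus and meninges markers gave 0.28 ± 0.15 at day 5 and 0.30 ± 0.14 at day 30.

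Gad2 had relative signals of 2.04, 1.99, 2.34 and 2.01 in Fe day 5. They were 2.72, 1.93, 2.64 and 1.53 in Fe day 15. They were 2.04, 1.67, 1.66 and 2.57 in Fe day 30, against 1.82, 2.09, 1.59 and 1.82 in the controls. The Fe day 5 rats lay close together, all above the control mean, whereas the Fe day 15 rats ran both above and below the whole control range. The log2 difference was 0.20 ± 0.18 at day 5, 0.24 ± 0.18 at day 15 and 0.10 ± 0.18 at day 30 (adjusted p in limma 0.690, 0.621 and 0.891). The day 15 value was 0.13 ± 0.18 without Fe day 15 replicate 1 and 0.40 ± 0.16 without replicate 4, and the day 30 value was −0.03 ± 0.18 without Fe day 30 replicate 4. Leaving out the same arrays gave 0.15 ± 0.23 at day 5 and 0.18 ± 0.20 at day 30.

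Only some of the 7 slides held both groups of a comparison. Where a slide held a control and a Fe array, the control lay at position 1 and the Fe array at position 2 or 4. The differences from control within a slide therefore also carry slide position. A single slide held a Fe day 5 array and a control, and on it the log2 difference was 0.78 for Tac1, 0.59 for Penk, 0.55 for Pdyn, −0.31 for Npy, −0.06 for Cck, 0.13 for Gad1 and 0.14 for Gad2, so that Pdyn there lay on the other side of 0 from its group difference. Both slides that held a Fe day 30 array and a control gave positive differences for Pdyn (0.19 and 0.23) and Gad1 (0.21 and 0.30), and differences of opposite sign for Tac1 (−0.46 and 0.66), Sst (−0.34 and 0.85), Npy (−1.26 and 0.34), Cck (−0.46 and 0.26) and Gad2 (−0.34 and 0.70). For Penk they were −0.00 and 0.28. At day 15 the 3 shared slides gave −0.45, −0.23 and 0.59 for Npy, 0.18, 0.52 and 0.16 for Cck and 0.38, 0.29 and 0.54 for Gad2. With slide as a block the estimates that moved by more than 1.5 times were those of Penk (0.12 ± 0.52), Pdyn (−0.11 ± 0.34) and Gad2 (0.42 ± 0.25) at day 5, of Npy (−0.09 ± 0.29) at day 15, and of Tac1 (0.04 ± 0.53), Sst (0.19 ± 0.23) and Gad2 (0.18 ± 0.23) at day 30, besides Npy and Cck at day 5 and Cck at day 30, which lay near 0.

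The Fe groups were also compared with one another, without the controls. These groups differ in age as well as in days since infusion, and the 2 cannot be told apart here. In Fe day 30 against Fe day 15, Tac1 was lower by estimate, with a log2 difference of −1.23 ± 0.46 (limma p 0.0186, adjusted 0.691), and Pdyn was higher, with 0.82 ± 0.28 (limma p 0.0112, adjusted 0.691). In both genes the 4 Fe day 30 rats did not overlap with the 4 Fe day 15 rats. Groups did not overlap in 1.4% of all features with Fe day 30 higher and in 1.89% with it lower. Cck was lower in Fe day 30 by estimate, at −0.33 ± 0.15 (limma p 0.0493, adjusted 0.768). That made 3 of 8 genes at an unadjusted p under 0.05, against 6.49% of all features, and 0 of 8 at an adjusted p under 0.05, against 0%. On the 2 slides that held both groups Tac1 differed by −2.93 and −0.50, Pdyn by 0.55 and 0.31, and Cck by −0.63 and −0.26. There the Fe day 15 array lay at position 2 and the Fe day 30 array at position 4. These within-slide differences therefore also carry slide position. Without Fe day 15 replicate 1 the Tac1 difference was −0.77 ± 0.40. Without the arrays high in choroid plexus and meninges markers the differences were −1.11 ± 0.43 for Tac1, 0.87 ± 0.27 for Pdyn and −0.24 ± 0.10 for Cck.

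In Fe day 30 against Fe day 5, Pdyn had a log2 difference of 0.66 ± 0.28 (limma p 0.0346) and Sst of −0.46 ± 0.21 (limma p 0.0465), both with an adjusted p of 1.00. These were 2 of 8 genes at an unadjusted p under 0.05, against 2.96% of all features, and 0 of 8 passed after adjustment, against 0%. The slides that held both groups gave 1.55 and 0.38 for Pdyn and −0.81 and 0.01 for Sst. On them the Fe day 5 array lay at position 1 and the Fe day 30 array at position 2, so slide position differs too. Without the 3 arrays high in choroid plexus and meninges markers the estimates were 0.61 ± 0.32 and −0.40 ± 0.20. In Fe day 15 against Fe day 5 the gene of lowest p was Cck, at 0.29 ± 0.15 (limma p 0.0804, adjusted 0.746). There 0 of 8 genes had an unadjusted p under 0.05, against 7.2% of all features, and 0 of 8 an adjusted p under 0.05, against 0%. Without the 3 arrays the Cck difference was 0.10 ± 0.11. The limma F-test over the 4 groups called 0 of 8 genes, against 0% of all features, and Tac1 alone had an unadjusted p under 0.05, at 0.0282, against 8.34% of all features.

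**Figure D3:**
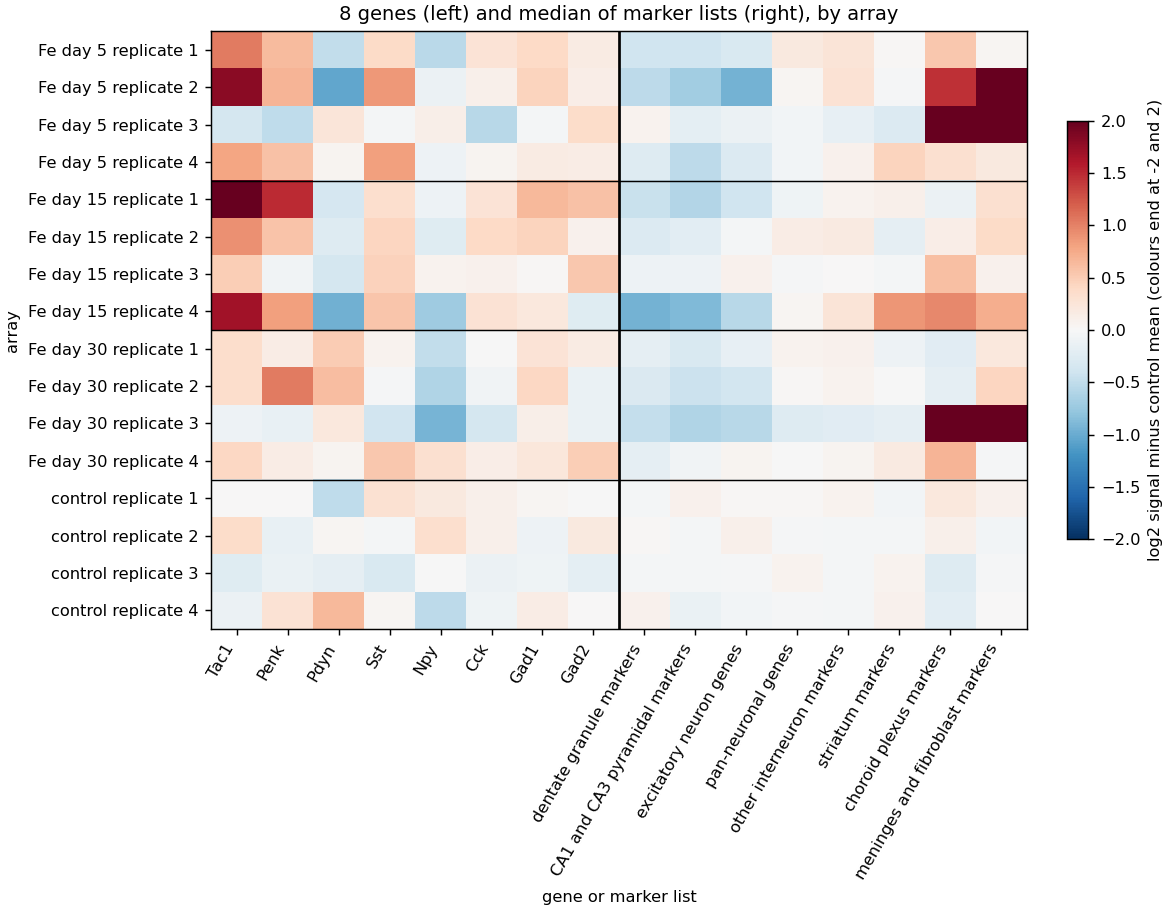
Log2 signal minus the control mean for the 8 genes (left of the line) and scores of marker lists (right), with arrays in rows and colours ending at −2 and 2. Fe day 15 replicates 1 and 4 are high in Tac1 and Penk and low in dentate and CA1 and CA3 markers, Fe day 30 replicate 3 is the lowest of its group in all of these, and Fe day 5 replicates 2 and 3 and Fe day 30 replicate 3 are high in choroid plexus and meninges markers.

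Some of the 8 genes varied together from rat to rat. Across the 16 arrays, as a description of values that share an array and its scaling, Pearson's r was 0.88 for Penk with Gad1, 0.83 for Tac1 with Penk and 0.77 for Tac1 with Gad1. After the group means were subtracted r was 0.87, 0.80 and 0.75, so these genes also varied together within groups. Npy with Gad2 had r of 0.58, or 0.75 within groups. Sst with Cck had r of 0.62, or 0.70 within groups. Pdyn ran opposite to Tac1 and Sst, at −0.60 and −0.59, or −0.43 and −0.42 within groups. The 2 GABA-synthesis genes hardly followed each other, although both mark the same neurons.

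For 3 pairs with a shared function or cell type, r was tested by permutation over the 16 arrays with Benjamini-Hochberg adjustment over the 3. Gad1 with Gad2 had r of 0.17 and Spearman's rho of 0.09 (permutation p 0.529 and 0.737). Sst with Npy, which share interneurons of the hilus, had r of 0.22 and rho of 0.01 (permutation p 0.406 and 0.979). Penk with Pdyn, both opioid precursors, had r of −0.26 and rho of −0.29 (permutation p 0.330 and 0.284). All 3 adjusted p-values of r were 0.529. Without the 2 arrays farthest from the median of the first gene r was −0.07, 0.06 and −0.52, and with group means subtracted it was −0.04, 0.33 and −0.10.

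The genes whose signal over the 16 arrays was most like that of each of the 8 were sought among 9127 named genes above background on all arrays, and r is given as a description. Npy was most like Crhbp (0.88), which encodes a protein that binds corticotropin-releasing hormone, and Pthlh (0.84). Sst was most like Cfdp1 (0.87) and Nxph1 (0.83), the neurexin ligand neurexophilin. Cck was most like Itfg1 (0.90) and the nicotinic receptor subunit Chrnb2 (0.89). Tac1 was most like Rnd2 (0.95) and Podxl2 (0.94). Penk was most like the cerebellin Cbln2 (0.92) and Th (0.91), which encodes tyrosine hydroxylase. Pdyn was most like Pyroxd1 (0.87) and Lrtm2 (0.82), Gad1 was most like Penk (0.88) and Zfp503 (0.87), and Gad2 was most like Imp3 (0.79) and B3galt5 (0.78).

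Genes that work with these peptides were read from 5 lists. None of their measured genes had an adjusted p under 0.05 in limma against control at any day, so the values that follow are estimates. Of 15 receptors for the peptides 13 were measured, with a median log2 difference of 0.04, 0.10 and −0.01 at days 5, 15 and 30. Unadjusted p was under 0.05 for 2, 3 and 2 of the 13, against 10.3%, 11.5% and 7.77% of all features. The somatostatin receptor genes pointed different ways, as Sstr1 differed from control by 1.37 ± 0.58 at day 5, 1.26 ± 0.58 at day 15 and 1.03 ± 0.58 at day 30, while Sstr4 differed by −0.43 ± 0.17, −0.29 ± 0.17 and −0.43 ± 0.17 and Sstr2 by −0.27 ± 0.20, −0.11 ± 0.20 and −0.46 ± 0.20. Without the arrays high in choroid plexus and meninges markers Sstr1 differed by 1.94 ± 0.58 at day 5, and Sstr4 and Sstr2 by −0.28 ± 0.16 and −0.37 ± 0.19 at day 30. The µ-opioid receptor gene Oprm1 differed by 0.34 ± 0.13 at day 15, but by 0.02 ± 0.12 under normexp background correction. With slide as a block Sstr1 differed by 0.93 at day 5 and Sstr2 by −0.24 at day 30.

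Of 29 other interneuron markers 25 were measured, with medians of 0.07, 0.07 and 0.03 at days 5, 15 and 30, and 1 of the 25 had an unadjusted p under 0.05 at each day, against 10.3%, 11.5% and 7.77% of all features. Reln, the extracellular protein reelin, differed by 0.31 ± 0.14, 0.24 ± 0.14 and 0.39 ± 0.14 at the 3 days. Without the 3 arrays high in choroid plexus and meninges markers the Reln difference at day 30 was 0.28 ± 0.10. Calb2 (calretinin) differed by 1.09 ± 0.43 at day 15, against 0.61 without Fe day 15 replicate 1, the rat with the highest Tac1 and Penk signals. Prox1, which also marks dentate granule cells, differed by −0.65 ± 0.31 at day 5, ranging from −0.90 without Fe day 5 replicate 3 to −0.32 without replicate 2, and by −0.39 with slide as a block. Crhbp, the gene most like Npy, differed by −0.42 ± 0.20 at day 30 and by −0.23 ± 0.19 without those arrays.

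Of 5 genes that transport or break down GABA 4 were measured, with medians of 0.08, 0.19 and 0.02 at days 5, 15 and 30. Abat (GABA transaminase) differed by 0.29 ± 0.13 at day 15 and by 0.14 without Fe day 15 replicate 1. The transporter gene Slc6a11 differed by 0.30 ± 0.15 at day 15, and by 0.17 both with slide as a block and without Fe day 15 replicate 1. The vesicular GABA transporter gene Slc32a1 had differences of 0.08, 0.09 and −0.10 at days 5, 15 and 30, each with an SE of 0.10.

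Of 20 other neuropeptide genes 18 were measured, with medians of −0.11, −0.08 and −0.25 at days 5, 15 and 30, and unadjusted p was under 0.05 for 3, 3 and 2 of the 18, against 10.3%, 11.5% and 7.77% of all features. Nppc, the precursor of C-type natriuretic peptide, differed by −0.24 ± 0.15, −0.39 ± 0.15 and −0.54 ± 0.15 at the 3 days (limma p at day 30 0.00374, adjusted 0.499). Tac3 (neurokinin B) differed by −0.70 ± 0.23 at day 5 and by −0.44 ± 0.23 and −0.56 ± 0.23 at days 15 and 30, on the other side of control from Tac1. Grp (gastrin-releasing peptide) differed by 1.94 ± 0.66 at day 5, with a range of 1.68 to 2.32 when 1 array at a time was left out but 0.74 with slide as a block, and by 1.29 ± 0.66 and 0.94 ± 0.66 at days 15 and 30. Hcrt (orexin) differed by −0.44 ± 0.18 at day 5. Without the 3 arrays high in choroid plexus and meninges markers the day 5 differences were −0.59 ± 0.20 for Tac3, 2.15 ± 0.85 for Grp and −0.61 ± 0.23 for Hcrt, and Nppc differed by −0.43 ± 0.16 at day 30.

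Of 16 genes for peptide processing and the granins of dense-core vesicles 15 were measured, with medians of −0.07, −0.08 and −0.13 at days 5, 15 and 30, and 12, 9 and 12 of the 15 had estimates below 0. Estimates were below 0 for 54.2%, 49.7% and 53.4% of all features. Chgb (secretogranin 1) differed by −0.33 ± 0.11 at day 5, or −0.15 after quantile normalization, and Pcsk2, which cleaves many of the precursors, by −0.28 ± 0.12. Scg3 and Vgf differed by −0.17 ± 0.08 and −0.34 ± 0.17 at day 30, and by −0.11 ± 0.06 and −0.22 ± 0.17 without the 3 arrays high in choroid plexus and meninges markers.

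**Figure D4:**
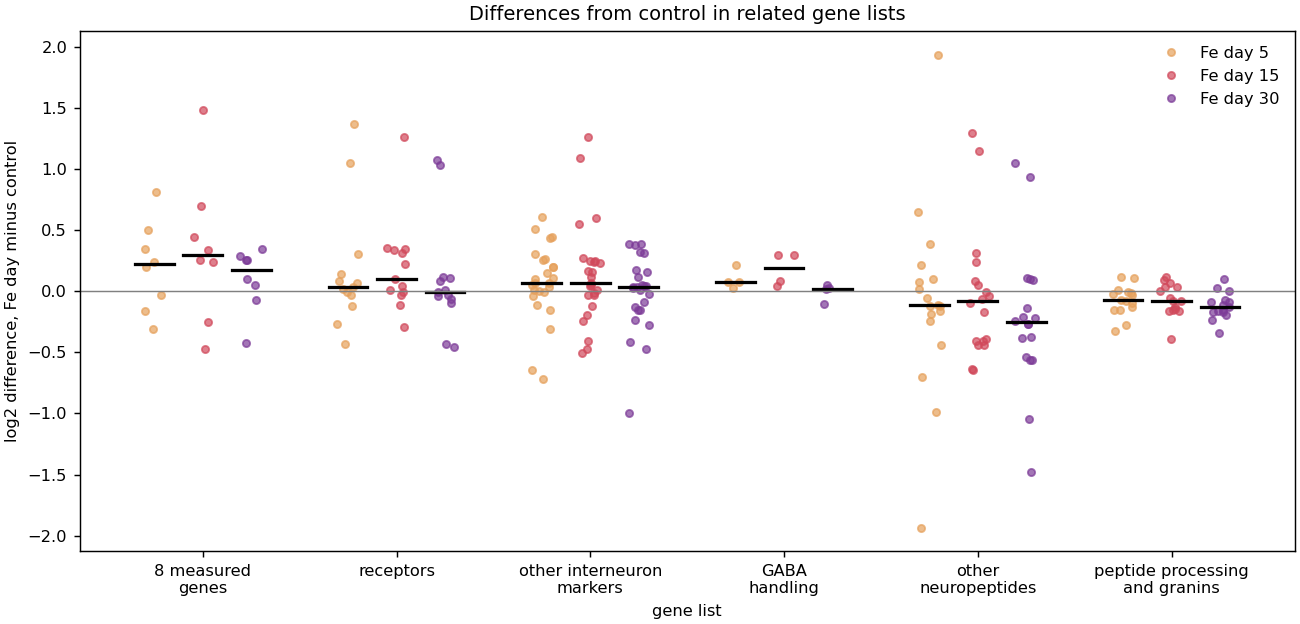
Log2 difference from control (vertical axis) of each measured gene in 6 lists, at each Fe day. Points are genes and black bars are medians. The medians of the 8 genes were 0.22, 0.30 and 0.18 at days 5, 15 and 30, and those of the peptide processing list were −0.07, −0.08 and −0.13.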

How the data were processed

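RNA of 16 rat hippocampi was measured on Agilent 1-colour arrays. Per the submitters' processing notes the images were read with Agilent Feature Extraction 9.5, and the processed signal is, per the file headers, a background-subtracted and detrended intensity on a linear scale. The deposited table of the series held the same intensity in 100% of its entries (relative tolerance 1e-06) and was not used further. Each deposited intensity was divided by its array's 75th percentile and taken to log2. Control spots and spots with an outlier mark were left out, spots of a probe were averaged, and a probe was kept (30548 of 41012) where some group had it well above background on each of its arrays. 1 probe per gene or accession, that of highest mean signal, left 26565 features, of which 9588 (36.1%) had a symbol from RefSeq (GRCr8, used for names and promoters). No spot was saturated.

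A one-way model of the 4 groups was fitted to all 16 arrays with limma 3.58.1 (R 4.3.3, 12 residual degrees of freedom), with two-sided tests and Benjamini-Hochberg adjustment over all features. The fit was also run on simulated data, with independent normal noise and the same spread of a gene in every group. The real arrays differ from this in their shared tissue signals and unequal spread, so that run does not show how the fit behaves on them. A gene is called at an adjusted p under 0.05. SEs and 95% intervals are from this fit. Precision is limited by how few arrays a group has.

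The members and lists were chosen with earlier results of these data known. Named were all members against control, members with an unadjusted p under 0.05 among the Fe days (or the one of lowest p), up to 4 genes of lowest p per related list, and the 2 genes most like each member. The values of 1 gene named by this rule are not reported here. Replicate numbers were not taken to pair the rats, since nothing in the labels says that they do. Same-numbered arrays of different groups, as deviations from group means, correlated at −0.41 to 0.39 over 24 pairs, 5 of them over 0.1. Differently numbered pairs were not set beside them, so these values cannot exclude a pairing. The arrays lay on 7 slides. All controls lay at slide position 1, all Fe day 15 arrays at position 2 and the Fe day 30 arrays at positions 2 and 4. Position and group therefore cannot be told apart at days 15 and 30. Fe day 5 replicate 4, the only array of its group on a slide with a control, lay at position 2. Alternatives were normexp with an offset of 50, quantile and median scaling, 2 other filters, only the groups compared, array weights, slide and replicate blocks, other probes, and leaving out arrays. The scans were made slide by slide on a single day, so scan date was not run as a separate block.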

Additional observations from a re-analysis of the deposited data

Results flagged for a closer look

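In 4 of the 32 sets of 4 values (8 genes in 4 groups) a single rat lay far from the other 3, by a gap of more than 0.829 of the range of the group. About 1 in 20 such sets is expected to show this by chance. In Fe day 5 replicate 3, Penk was the lowest of its group at −0.0462 (log2 signal minus the 75th percentile of the array) and Gad2 the highest at 1.225. In Fe day 30 replicate 3, Tac1 was the lowest of its group at −0.732. Both of these arrays were among the 3 high in choroid plexus and meninges markers, and the part of that tissue in the values was not tested. In Fe day 15 replicate 4, Pdyn was the lowest of its group at 2.367, on the array with the highest striatal score (0.89) and the lowest dentate granule score (−0.95) of the 16.

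Pdyn was below the control mean in all 4 Fe day 15 rats and above it in all 4 Fe day 30 rats. The difference between the Fe groups, Fe day 30 minus Fe day 15, was 0.8242 on the log2 scale, and in limma its adjusted p was 0.691.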

How the results depend on the processing

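The count of members with an adjusted p under 0.05 was 0 in all 7 tests and stayed 0 in each of the 181 counts under 26 other settings, where the lowest adjusted p of a member was 0.144. The replicate block changed no call, and with it Tac1 differed by 1.48 ± 0.38 at day 15, with an adjusted p in limma of 0.268. Over the settings Tac1 at day 15 ran from 1.03 to 1.81, with adjusted p of 0.144 to 0.509. Differences near 0 changed sign. Npy at day 5 was 0.0038 with slide as a block. Cck at day 5 was 0.043 with quantile scaling, 0.022 with array weights and 0.164 without the 3 arrays high in choroid plexus and meninges markers, and Cck at day 30 was 0.024 without them. Leaving out 1 array at a time gave −0.133 to 0.142 for Cck at day 5, −0.143 to 0.0236 for Cck at day 30, −0.034 to 0.178 for Gad2 at day 30 and −0.116 to 0.192 for Sst at day 30. The cause of these changes was not tested. Medians of related lists moved by more than the spread between rats in 6 cases: receptors at day 30 (0.13 with array weights, against −0.01 as reported), GABA handling at day 30 (−0.09 with slide as a block, against 0.02), other neuropeptides at day 5 (0.01 with slide as a block, against −0.11), and peptide processing at day 5 (−0.02 with normexp, −0.02 with quantile scaling and −0.03 without the 3 arrays, against −0.07).

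Over all 26565 features the calls depended on the setting: at day 15 there were 184 with array weights against 0, and at day 30 there were 25 with array weights, 9 with median scaling and 8 with quantile scaling, against 2. The Penk probe that was used was above background on all 16 arrays. Its other probe was above background on 5 of 16 arrays. That dim probe gave log2 differences from control of 0.09, 0.63 and 0.02 at days 5, 15 and 30, against 0.35, 0.70 and 0.29 for the probe used.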
